A study of Mus musculus with 30 samples.

Results

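The genes described here make cholesterol, fatty acids and triglycerides, and were chosen by name as 7 genes of these pathways. The choice was made with earlier results of these data known. Hmgcs1, Idi1, Fdps and Sqle belong to sterol synthesis, and Fasn, Scd1 and Dgat2 to fatty acid and triglyceride synthesis. Array annotation named 6 of the 7 genes through 7 probe sets of 13179 on the 2 array types, 4 for sterol synthesis and 3 for fatty acid and triglyceride synthesis. Fdps was not named by that annotation and is not analysed here. Of the 7 probe sets, 5 passed the filter on low values, among 4518 probe sets that did so in all.

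The samples were kidney total RNA from the inbred mouse strain C57BL/6, hybridised in 1 colour to arrays of short oligonucleotides, with 5 numbered samples of each array type in each of 3 groups. The groups were calorie-restricted mice of 30 months (CR), control-fed mice of 30 months (OC) and control-fed mice of 5 months (YC). Each number of a group had 1 array of each type. The labels name OC against YC as the comparison for ageing and CR against OC as the one for calorie restriction, a lowered food intake. No genetic change is given for any group. The CR and YC kidneys differ in both age and diet, so their comparison does not separate these. Each group's samples are numbered 1 to 5, and nothing in the labels says that a number is its own animal. The word animal is used for a number here, and p-values measure only the spread between these samples.

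Early in sterol synthesis Hmgcs1, the cytosolic HMG-CoA synthase, builds HMG-CoA from acetyl units. Idi1, the isopentenyl diphosphate isomerase, and Fdps, the farnesyl diphosphate synthase, act on the isoprenoid intermediates, and Sqle, the squalene epoxidase, prepares squalene for closure into sterol rings. Fasn, the fatty acid synthase, makes palmitate, Scd1 puts a double bond into saturated fatty acids, and Dgat2 joins the last acyl chain to diacylglycerol to give triglyceride. Sterol regulatory element-binding proteins drive both branches when cholesterol runs low or insulin is high, and do so together with the factors NF-Y and Sp1 at the promoters. In kidney the proximal tubule burns fatty acids for most of its energy, and lipid held in tubule cells has been linked to ageing and metabolic disease.

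Promoter sequence shows which known control motifs lie around a transcription start of these genes. RefSeq promoters of build GRCm38.p6 were given for 3 of the 7 genes. All 3 are shown, each with 250 bases before and 50 after a transcription start. They are written 5′ to 3′ along the gene's strand, which is plus for Hmgcs1 (chr13:119690101-119690400) and Idi1 (chr13:8885356-8885655) and minus for Fasn (chr11:120824498-120824797). Capitals mark matches on either strand to CACNCCAC, the core of the sterol regulatory element, to CCAAT, the NF-Y box, and to GGGCGG, the Sp1 box.
Hmgcs1: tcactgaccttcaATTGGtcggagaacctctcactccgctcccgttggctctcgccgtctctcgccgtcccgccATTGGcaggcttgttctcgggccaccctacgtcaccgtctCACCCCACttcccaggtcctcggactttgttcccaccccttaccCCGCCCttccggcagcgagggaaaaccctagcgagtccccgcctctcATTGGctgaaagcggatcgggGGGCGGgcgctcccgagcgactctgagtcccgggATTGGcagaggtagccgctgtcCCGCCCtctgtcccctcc
Idi1: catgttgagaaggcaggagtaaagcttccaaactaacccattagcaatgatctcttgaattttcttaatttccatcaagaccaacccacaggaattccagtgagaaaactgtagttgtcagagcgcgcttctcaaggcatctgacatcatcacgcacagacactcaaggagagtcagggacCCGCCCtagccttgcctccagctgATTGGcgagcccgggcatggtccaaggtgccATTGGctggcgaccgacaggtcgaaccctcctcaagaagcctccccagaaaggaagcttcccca
Fasn: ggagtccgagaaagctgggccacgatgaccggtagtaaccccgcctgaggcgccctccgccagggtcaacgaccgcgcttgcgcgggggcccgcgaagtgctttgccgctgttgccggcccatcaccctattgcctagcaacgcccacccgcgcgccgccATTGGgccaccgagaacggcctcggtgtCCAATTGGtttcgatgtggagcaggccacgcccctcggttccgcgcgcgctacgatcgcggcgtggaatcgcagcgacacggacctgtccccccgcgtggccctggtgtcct
The Hmgcs1 window held 1 match to the sterol regulatory core, from base -136 to base -129 before the start, along with 4 NF-Y boxes and 3 Sp1 boxes. The Idi1 window held 2 NF-Y boxes and 1 Sp1 box, and 0 matches to the sterol regulatory core. The Fasn window lies inside the span of that gene (chr11:120805958-120825166), so its bases are counted from a start within the span. It held 3 NF-Y boxes, of which 2 overlap on opposite strands from base -62 to base -55, with 0 matches to the other motifs. Among 32851 promoters of the same length, from 27025 genes, 6.24% held the sterol regulatory core, 37.4% an NF-Y box and 35.7% an Sp1 box, and 0.807% held all 3 as Hmgcs1 did. A match is a run of letters and not a shown binding site, and a motif that is missing from a window may lie outside it.

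**Figure D1:**
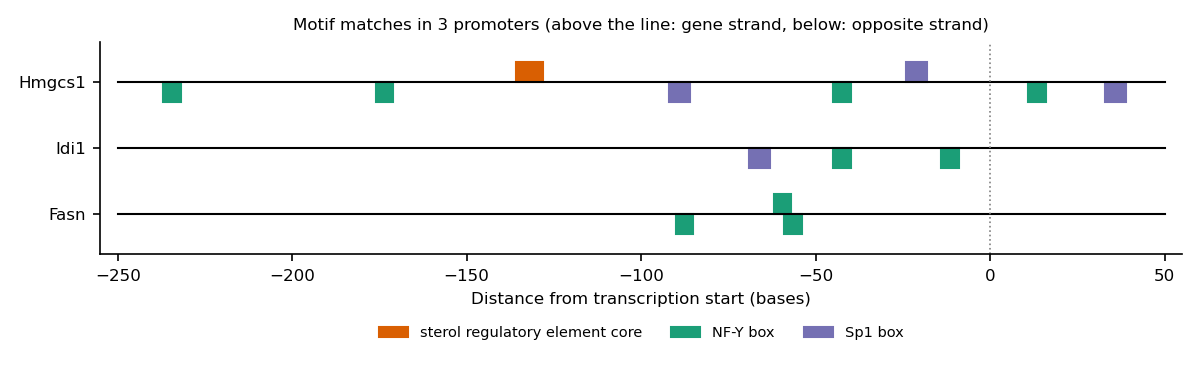
Matches to the 3 motifs in the promoter windows of Hmgcs1, Idi1 and Fasn, by distance in bases from the transcription start of each window. Matches on the gene's own strand are above each line and those on the opposite strand below. For Fasn that start lies within the gene's span. The 1 match to the sterol regulatory core lies in Hmgcs1, and NF-Y boxes lie in all 3 windows.

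The tables hold intensities, and a background floor was taken from the size of the negative values (their root mean square), 1103 on the first array type and 1815 on the second, which carries Fasn and Dgat2. Between 33.5% and 37.5% of values of an array of the first type lay above it and between 23.9% and 27.7% of the second, and the number of arrays limits the precision. Of 12 kidney markers, 7 were on the arrays and passed the filter, with summed intensities of 189371 to 311834 in CR, 178740 to 322409 in OC and 219604 to 336541 in YC. Animals 4 and 5 of each group lay apart from animals 1 to 3 along the first principal component, which held 37% of the variance within groups, and the labels give no batch for them. On the second array type 85 tested probe sets with several sets per target go against their row labels in YC, with a correlation across probe sets of -0.20 between mean OC and YC values, and none of the 7 probe sets is among them. Fasn and Dgat2 belong to 957 probe sets of that array type with 1 set per target and the suffix s, for which this correlation was 0.96, and 0.96 for CR against OC.

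Hmgcs1 RNA was lower in OC and in CR than in YC kidneys, and the step between CR and OC did not pass the test. Probe set aa275198_s_at, of a gene at chr13:119690351-119708260 in GRCm38.p6, read 12871, 10784, 10628, 13080 and 14758 in OC, against 15962, 17181, 15788, 18841 and 21618 in YC. Every OC animal lay below every YC animal. The means were 12424 ± 1732 in OC and 17878 ± 2421 in YC (SD, n = 5 each), a log2 difference of -0.52 ± 0.15 (SE) with a 95% interval of -0.83 to -0.21. The limma adjusted p was 0.0479, just inside the threshold of 0.05 that 5.16% of the tested probe sets passed in this comparison and 2.17% passed with a lower level in OC. In whole tissue, fewer cells of a type and less RNA per cell cannot be told apart.

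This age difference kept its size in each alternative, with values from -0.59 to -0.45, but its call was lost in 19 of 26 of them. Without the 85 probe sets that go against their labels the adjusted p was 0.0636, and 3.38% of the remaining probe sets passed. It was 0.0371 without OC animal 5 and between 0.0533 and 0.142 without any 1 of the other 9 OC and YC animals. The difference was -0.52 in animals 1 to 3 alone and -0.53 in animals 4 and 5 alone, with adjusted p of 0.0831 and 0.156 in limma. Animals 4 and 5 read higher than animals 1 to 3 in each group, by a log2 difference of 0.39 in CR, 0.30 in OC and 0.31 in YC. When the fit also held a term for the 2 sets of numbers, the limma adjusted p for age was 0.00341.

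In CR kidneys Hmgcs1 read 9883, 9744, 9040, 13027 and 11857, a mean of 10710.2 ± 1665 (SD, n = 5). The CR and OC animals overlapped, and CR minus OC was -0.22 ± 0.15 on the log2 scale (95% interval -0.53 to 0.089, limma adjusted p = 0.522). Against YC every CR animal was lower, with a log2 difference of -0.74 ± 0.15 (limma adjusted p = 0.00437). The threshold was passed by 2.61% of tested probe sets in CR minus OC and by 5.71% in CR minus YC, where 2.77% were lower in CR. The call against YC was kept in 25 of 26 alternatives and lost in animals 4 and 5 alone, where the value was -0.70 (adjusted p = 0.0996).

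Idi1 RNA was lower in OC and in CR than in YC kidneys, and was above the floor in each YC kidney and in 1 old one. Probe set aa267683_s_at (gene at chr13:8885606-8892396) read 1210, 417, 757, 548 and 400 in OC, against 1685, 2204, 1952, 1623 and 1521 in YC. The groups did not overlap, and 4 of 5 OC animals lay below the floor of 1103 while all 5 YC animals lay above it. Mean intensities were 666.4 ± 336 in OC and 1797 ± 278 in YC (SD, n = 5 each), a ratio of 0.371 on the deposited scale. After the floor the log2 difference was -0.66 ± 0.12 (95% interval -0.91 to -0.42, limma adjusted p = 0.0013), a size that the floor sets in part. On an asinh scale the difference was -1.01, and with a lower floor on the log2 scale it was -1.37. The asinh scale sets no value to the floor but takes the floor as its unit, so its size depends on the floor too.

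The CR kidneys read 506, 633, 651, 597 and 631 for Idi1, all below the floor and close together. No difference can be read between CR and OC, since 9 of the 10 animals lay at the floor. Against YC, Idi1 was at least 1.61-fold lower in CR (limma adjusted p = 0.00107). The probe set passed the filter through the YC group and 1 OC animal, so it could enter the test only by being high in YC. The age call was kept in 22 of 23 alternatives and lost in animals 4 and 5 alone (-0.51, adjusted p = 0.122). In those animals the call for CR against YC was lost too (limma adjusted p = 0.14). Alternatives with a higher floor or a filter of 10 or more arrays dropped Idi1 and are not among the 23.

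The other sterol probe sets were too dim to test. A second Hmgcs1 probe set, aa275198_i_at, read 410, 339, 584, -491 and 150 in CR, 1418, 921, 578, 378 and -3 in OC and 2371, 2166, 2613, 572 and 566 in YC. It was above the floor on 4 arrays, those of 1 OC and 3 YC animals, where at least 5 were needed. Within YC its animals 4 and 5 were the lowest, where those of the brighter set were the highest, and no level can be compared between CR and OC. Sqle (D42048_s_at, gene at chr15:59315092-59331193), the squalene epoxidase, read 108 to 295 in CR, 104 to 759 in OC and 61 to 774 in YC, below the floor on every array. No level of Sqle can be compared from these values.

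**Figure D2:**
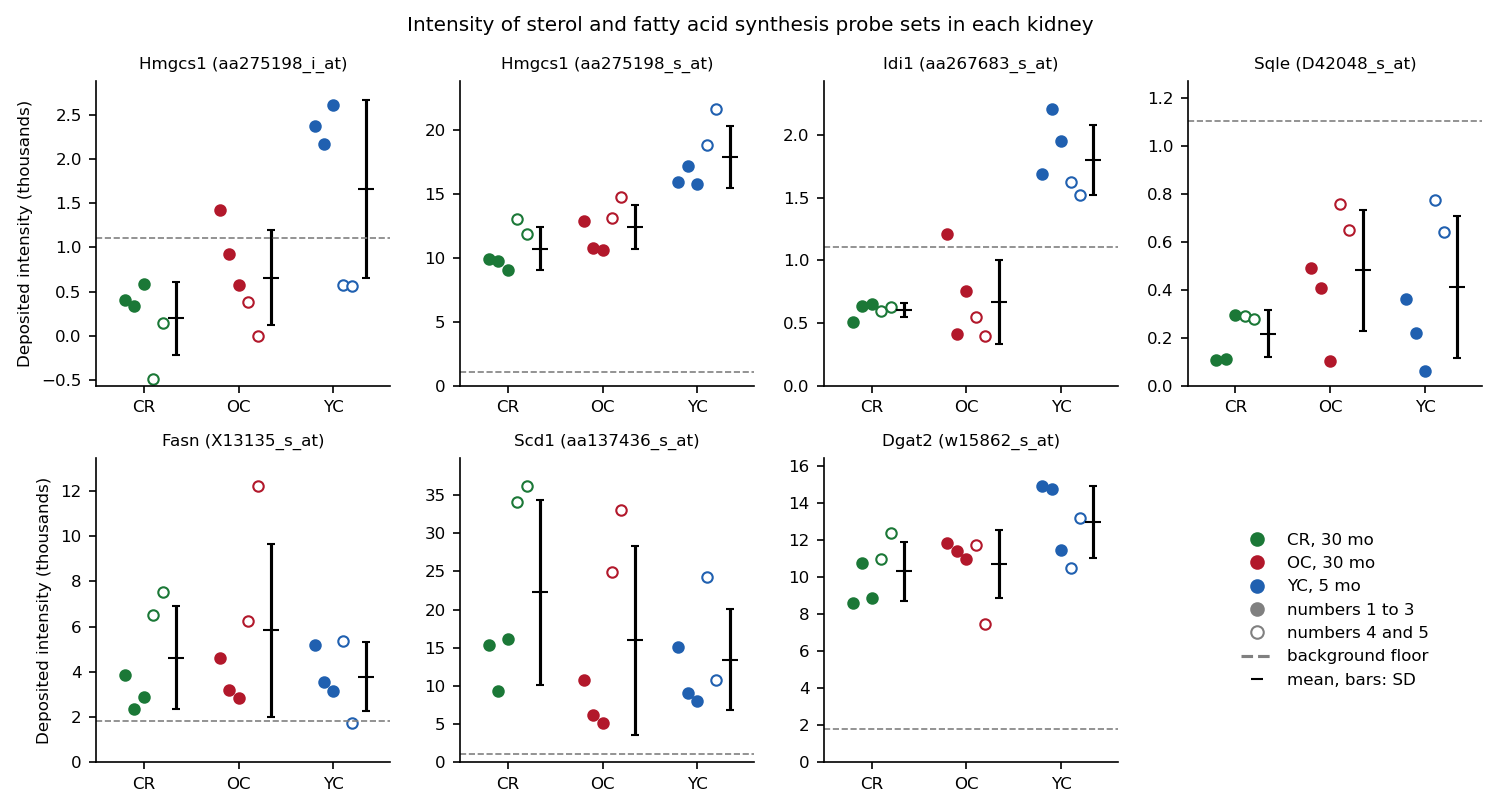
Deposited intensity (vertical axes, arbitrary array units) of the 7 probe sets in each kidney of CR, OC and YC, with filled points for animals 1 to 3, open points for animals 4 and 5, the mean with SD bars, and a dashed line at the background floor. OC and YC do not overlap for Hmgcs1 (aa275198_s_at) and Idi1, whereas Scd1 and Fasn spread widely within groups, with animals 4 and 5 high in CR and OC.

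None of the other sterol synthesis genes that could be tested passed the threshold. Of 18 other sterol synthesis genes, 7 were on the arrays and 5 were tested, and 0 passed the limma threshold in any of the 3 comparisons. Their median log2 difference was 0.20 for OC minus YC, 0.11 for CR minus OC and 0.23 for CR minus YC, against medians of -0.037, 0.029 and -0.0056 over all tested probe sets. At an unadjusted p under 0.05, 1 of the 5 differed, Ebp, a sterol isomerase, in CR against OC (0.49 ± 0.22, adjusted p = 0.319). Fdft1, the squalene synthase, stands next to Sqle in the pathway and gave -0.065 ± 0.16 for OC minus YC and 0.29 ± 0.16 for CR minus OC. Lss, which closes the sterol rings, gave 0.37 ± 0.25 and -0.22 ± 0.25.

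Of the genes that govern both branches, few could be read. Srebf1, Srebf2, Insig1 and Acaca were not named by the annotation and are not analysed here. Insig2, which holds the SREBP precursors in the endoplasmic reticulum, was below the floor on every array, as was the desaturase Scd2. Of 28 regulators 14 were on the arrays and 5 were tested, with 0 past the threshold for OC against YC or CR against OC. Nr1h4, the bile acid receptor, was lower in CR than in YC kidneys (-0.83 ± 0.23, limma adjusted p = 0.0446). Mbtps1, a protease that releases SREBPs from the membrane, had 2 tested probe sets with 0.35 ± 0.18 and 0.19 ± 0.16 for OC minus YC, neither past the threshold.

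Scd1, the desaturase, varied more among animals of a group than between groups. Probe set aa137436_s_at (gene at chr19:44394450-44407709) read 15393, 9346, 16172, 34114 and 36210 in CR, 10748, 6198, 5132, 24877 and 33030 in OC and 15042, 9146, 8049, 24290 and 10755 in YC. The 3 groups overlapped broadly, and animals 4 and 5 lay above animals 1 to 3 in CR and in OC. OC minus YC was -0.005 ± 0.51 on the log2 scale (95% interval -1.09 to 1.08, limma adjusted p = 0.999). CR minus OC was 0.67 ± 0.51 (95% interval -0.42 to 1.75, adjusted p = 0.58) and CR minus YC was 0.66 ± 0.51 (adjusted p = 0.545), both from limma. These intervals leave room for a difference as large as that of Idi1 in either direction for age.

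Within each set of numbers the standard errors of Scd1 were smaller, 0.34 in animals 1 to 3 and 0.39 in animals 4 and 5. In animals 1 to 3 alone, CR minus OC was 0.92 and OC minus YC was -0.57. In animals 4 and 5 alone, CR minus OC was 0.29 and OC minus YC was 0.84. None of these passed, with limma adjusted p between 0.153 and 0.798. When the fit held that term, CR minus OC was 0.67 ± 0.31 (limma adjusted p = 0.229).

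Fasn, the fatty acid synthase, was high in the same CR and OC animals as Scd1. Probe set X13135_s_at (gene at chr11:120805958-120825166) read 3846, 2372, 2888, 6524 and 7540 in CR, 4634, 3181, 2863, 6247 and 12225 in OC and 5190, 3553, 3143, 5344 and 1740 in YC. The groups overlapped in every comparison, and the highest and lowest values belonged to OC animal 5 and YC animal 5. OC minus YC was 0.50 ± 0.41 (95% interval -0.37 to 1.38, limma adjusted p = 0.618), CR minus OC was -0.26 ± 0.41 (-1.14 to 0.62, adjusted p = 0.823) and CR minus YC was 0.24 ± 0.41 (adjusted p = 0.813). The sign for age depended on which animals were read. In animals 1 to 3 alone OC minus YC was -0.15 and in animals 4 and 5 alone it was 1.49, with limma adjusted p of 0.82 and 0.235.

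Across the 15 animals Fasn and Scd1 correlated with r = 0.79 on the log2 scale (Spearman rho 0.76), and their deviations from the group means with r = 0.89. Within animals 1 to 3 the r was 0.44 over 9 animals, and within animals 4 and 5 it was 0.93 over 6. The pooled value therefore carries the step between the number sets, which the arrays of an animal share. That step, as the log2 mean of animals 4 and 5 minus that of animals 1 to 3, was 1.41 in CR, 2.05 in OC and 0.65 in YC for Scd1. For Fasn it was 1.24 in CR, 1.33 in OC and -0.31 in YC. The spread within groups was 0.92 (SD, log2) for Scd1 and 0.74 for Fasn, wider than in 99.1% and 97.5% of tested probe sets, over which the median was 0.31.

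Fat cell markers were also high in several of these animals. Of 10 fat markers 8 were on the arrays and 6 passed the filter, while Lep, the fat cell hormone leptin, was below the floor on every array. Their summed intensity ran from 11407 to 27375 in CR, from 14678 to 29548 in OC and from 14282 to 20609 in YC. In animals 4 and 5 the sum averaged 25573 in CR, 26277 in OC and 16368 in YC, and in animals 1 to 3 it averaged 16947, 16275 and 18996 in the same order of groups. Over 15 animals the sum correlated with Fasn at r = 0.72 and with Scd1 at r = 0.60. For Fasn the r was 0.45 in the 9 animals numbered 1 to 3 and 0.75 in the 6 numbered 4 and 5, and for Scd1 it was 0.044 and 0.80, so the pooled value for Scd1 holds the step between the sets of numbers. For Hmgcs1 the pooled r of 0.098 joins opposite signs, 0.43 in animals 1 to 3 and -0.95 in animals 4 and 5. All of these r values also carry the differences between groups. For deviations from the group means, which still hold the step between sets of numbers, the r for Hmgcs1 was 0.46 over the 15 animals. Taken singly, the 6 tested markers correlated with Scd1 in animals 1 to 3 at r from -0.24 (Adipoq) to 0.63 (Lipe). None of the 6 tested fat markers passed the limma threshold in any comparison. The part of fat cells in the spread of Fasn and Scd1 was not tested.

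**Figure D3:**
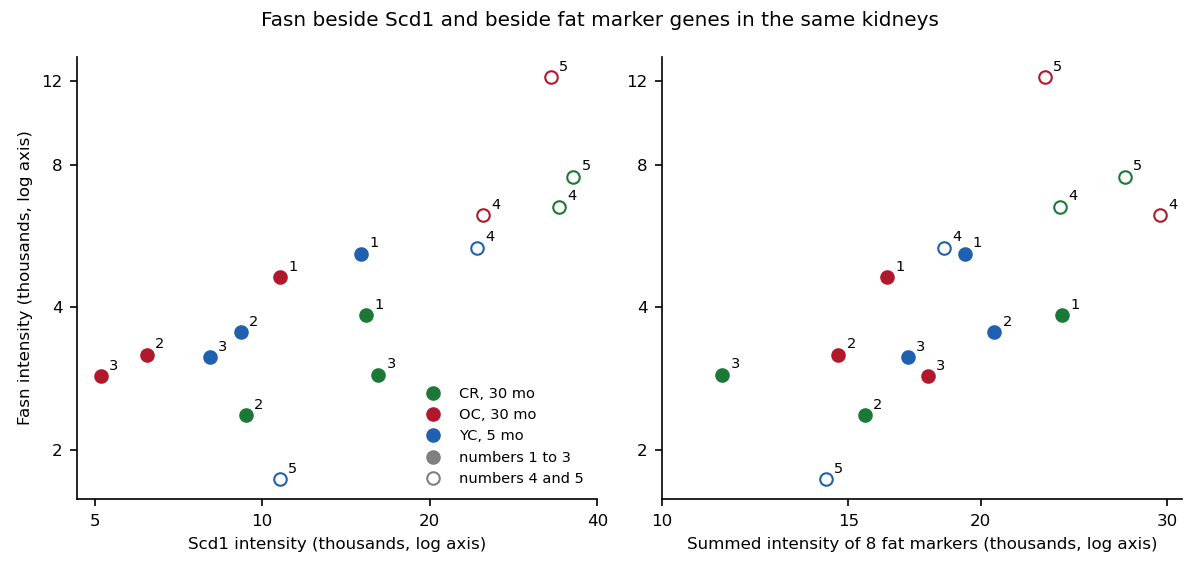
Fasn intensity against Scd1 intensity (left) and against the summed intensity of 8 fat markers (right) in the 15 kidneys, log axes of deposited intensity, numbered by animal, with filled points for animals 1 to 3 and open points for animals 4 and 5. Animals 4 and 5 of CR and OC lie at the upper right of both panels, and YC animal 5 lies at the bottom.

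Dgat2, the last enzyme of triglyceride synthesis, had a narrow spread within groups (SD 0.24, log2) and passed in no comparison. Probe set w15862_s_at (gene at chr7:99153663-99182713) read 8603, 10778, 8869, 10965 and 12374 in CR, 11846, 11444, 11010, 11774 and 7467 in OC and 14954, 14760, 11473, 10530 and 13184 in YC. The groups overlapped, with OC animal 5 below the other OC animals. OC minus YC was -0.28 ± 0.16 (95% interval -0.63 to 0.058, limma adjusted p = 0.415), beside a median of -0.12 over all tested probe sets of its array type. CR minus OC was -0.047 ± 0.16 (-0.39 to 0.30, adjusted p = 0.934) and CR minus YC was -0.33 ± 0.16 (-0.67 to 0.011, adjusted p = 0.292), both from limma. The intervals against YC take in a difference as large as that of Hmgcs1 with age. In animals 1 to 3 alone CR minus YC was -0.54 (limma adjusted p = 0.0749), and in animals 4 and 5 alone it was -0.017.

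Both tested sterol probe sets were lower in OC than in YC, and 0 of 3 tested fatty acid and triglyceride probe sets passed in either direction, where 5.16% of all tested probe sets passed and 2.17% were lower. The Hmgcs1 call is the one lost in 19 of 26 alternatives. The median log2 difference for OC minus YC was -0.59 over the 2 sterol sets and -0.005 over the 3 others, with -0.037 over all tested probe sets. For CR minus OC, 0 passed in either branch, with medians of -0.12 and -0.047 and an overall median of 0.029. That sterol median includes Idi1, for which no difference can be read between CR and OC. For CR minus YC both sterol sets were lower and 0 of 3 others passed, with medians of -0.72 and 0.24. The 2 sterol sets do not stand for the branch. Idi1 could pass the filter only through YC, and the 5 other tested sterol synthesis genes had 0 calls and a median of 0.20 for OC minus YC. The CR minus YC and OC minus YC values share their YC animals.

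Among all tested probe sets 6.46% had no overlap between OC and YC, 4.16% none between CR and OC and 7.24% none between CR and YC. Hmgcs1 and Idi1 had none between OC and YC or between CR and YC. Of the changes with age, 5.36% of tested probe sets had a lower value than Hmgcs1. The fatty acid set with the most extreme rank was Scd1 for CR minus OC, where 97.7% of probe sets had a lower value, although its interval spans 0. The difference between branches was not tested, since the genes were chosen with earlier results of these data known and only 5 could be read.

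**Figure D4:**
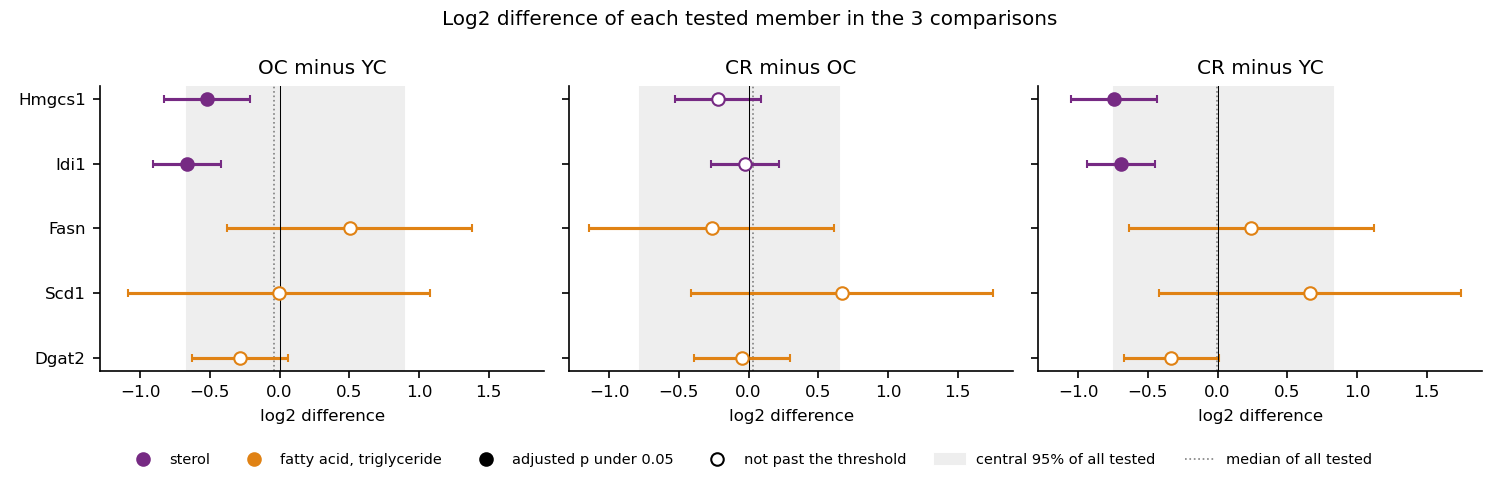
Log2 difference with 95% interval for the 5 tested probe sets in the 3 comparisons, filled where the limma adjusted p is under 0.05, with the central 95% of all tested probe sets in grey and their median dotted. Hmgcs1 and Idi1 lie below 0 in OC minus YC and CR minus YC, and the wide intervals of Fasn and Scd1 span 0 in all 3.

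Other genes of fatty acid synthesis gave few calls. Of 25 such genes 11 were on the arrays and 8 were tested, with 0 past the threshold in OC against YC and in CR against OC and 1 lower in CR against YC. That gene was Me1, the cytosolic malic enzyme that supplies NADPH, which read 3830, 3631, 3676, 2613 and 4013 in CR, 5774, 5341, 4107, 3905 and 3929 in OC and 6849, 6450, 6865, 4472 and 4463 in YC. Each CR animal lay below each YC animal (-0.70 ± 0.18, limma adjusted p = 0.0261), and CR minus OC was -0.37 ± 0.18 (adjusted p = 0.341). Acly, which makes the cytosolic acetyl-CoA that both branches draw on, read 5989, 5216, 5551, 5689 and 6437 in CR, 6261, 5756, 6928, 6317 and 7979 in OC and 5338, 3701, 4414, 5726 and 4634 in YC. Each OC animal lay above each YC animal, and OC minus YC was 0.49 ± 0.14, which missed the threshold (limma adjusted p = 0.0501). A second Acly probe set was below the floor on every array.

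Of 17 other triglyceride synthesis and lipid droplet genes, 9 were on the arrays and 7 were tested, again with 0 past the threshold in OC against YC and in CR against OC. Plin2, which coats lipid droplets, was higher in CR than in YC. It read 5803, 6232, 5971, 7439 and 9191 in CR, 3344, 3680, 3856, 6017 and 6070 in OC and 3816, 4083, 3296, 3163 and 4035 in YC. All 5 CR animals lay above all 5 YC animals (0.90 ± 0.19, limma adjusted p = 0.00799). CR and OC overlapped, and CR minus OC was 0.61 ± 0.19 (limma adjusted p = 0.117). Dgat1, which catalyses the same step as Dgat2, had 2 tested probe sets with 0.035 ± 0.14 and 0.061 ± 0.20 for OC minus YC and 0.063 ± 0.14 and -0.30 ± 0.20 for CR minus OC.

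Among 22 genes of cholesterol uptake, storage and export, 12 were on the arrays and 8 were tested. Cyp7b1, an oxysterol hydroxylase, was lower in OC than in YC (-0.97 ± 0.23, limma adjusted p = 0.0181), where it passed the filter through 4 YC and 2 OC animals, and at least 2.10-fold lower in CR than in YC (limma adjusted p = 0.0093), with every CR animal at the floor. Apoe, a lipoprotein component, was higher in CR than in YC on both of its probe sets (4.35 ± 0.76 and 4.33 ± 0.61 on the log2 scale, limma adjusted p of 0.00158 and 0.000192). In YC the first set read 291, 2485, 3087, 469 and 14728, and the second -6073, 2421, 4890, -1534 and 19190. Some of these lie below the floor, which therefore sets the differences from YC in part. For OC minus YC these sets gave 1.34 ± 0.76 and 2.17 ± 0.61, of which the second passed at an adjusted p of 0.0497, and for CR minus OC 3.0 ± 0.76 and 2.16 ± 0.61, of which the first passed at 0.0444. The exporters Abca1 and Abcg1 gave 0.24 ± 0.16 and 0.072 ± 0.21 for OC minus YC, with 0 calls in the 3 comparisons.

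**Figure D5:**
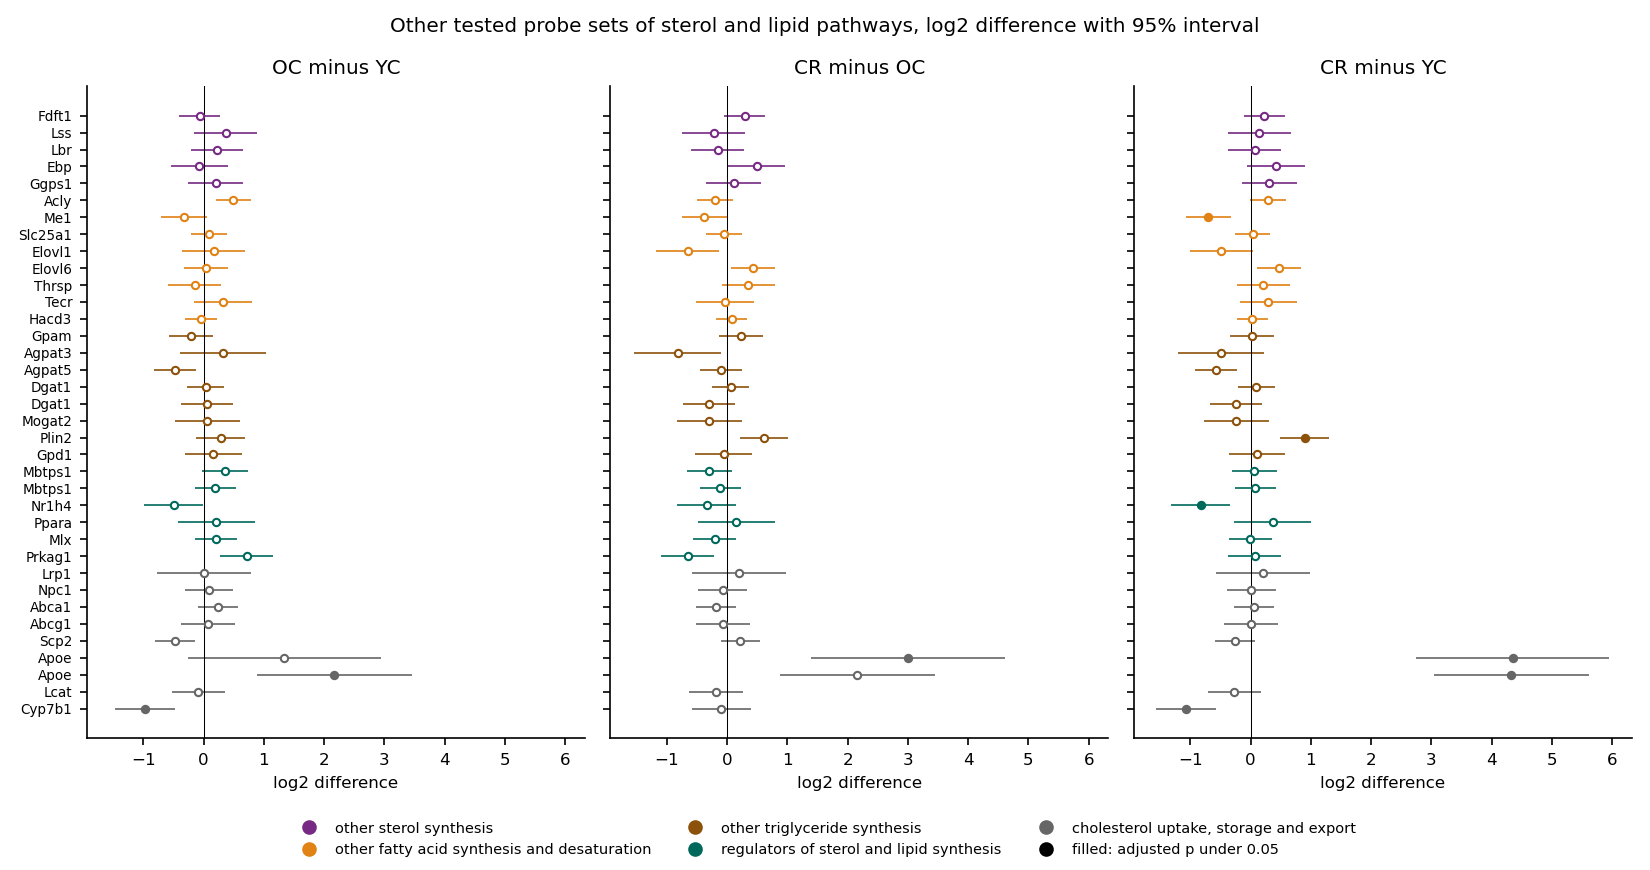
Log2 difference with 95% interval for the other tested probe sets of sterol synthesis, fatty acid synthesis, triglyceride synthesis, their regulators and cholesterol handling, filled where the limma adjusted p is under 0.05. Filled points are Apoe and Cyp7b1 in OC minus YC, Apoe in CR minus OC, and Me1, Plin2, Nr1h4, Apoe and Cyp7b1 in CR minus YC.

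Markers of other cells moved with age and diet beside these results. The summed intensity of 9 leukocyte markers was 38085 to 65755 in CR, 113514 to 211169 in OC and 25647 to 33936 in YC. Of 8 tested genes, 6 were higher in OC than in YC and 4 were lower in CR than in OC. The largest OC means among these markers were those of the immunoglobulin genes Ighm (45849, X03690_s_at) and Igha (40935). The leukocyte markers Ptprc and Cd68 passed in no comparison. Of 11 adrenal markers 6 were on the arrays and 3 were tested, with sums of 10415 to 11424 in CR, 10044 to 14062 in OC and 10635 to 15865 in YC. The adrenal gene Star, which carries cholesterol into mitochondria, and Pnmt, of the adrenal medulla, were below the floor on every array. The adrenal markers Nr5a1 and Th were above it on all 15 arrays, although a second Nr5a1 probe set was below it on every array. For OC minus YC, Nr5a1 gave 0.33 ± 0.18 and Th 0.33 ± 0.23, and neither passed in any comparison. Fdx1, an electron carrier for steroid synthesis that kidney also uses, was lower in OC than in YC (-0.89 ± 0.18, limma adjusted p = 0.00414), and of the 7 kidney markers Calb1, of the distal tubule, was lower too (-0.67 ± 0.17, adjusted p = 0.0265). The part of other cells in the lower Hmgcs1 and Idi1 of OC kidneys was not tested.

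The genes most like each member were taken over the 15 animals from 3037 named probe sets by Pearson r on the log2 scale, as a description that carries the group differences and the number sets. Hmgcs1 was closest to Calml4 (r = 0.91), Lpl (0.90) and Lypla1 (0.88). Scd1 was closest to Dcaf11 (0.93), Rpsa (0.89) and Foxo3 (0.85), and Fasn to Dusp6, Cidea and Dcaf11 (0.77 each). Dgat2 was closest to Tango2 (0.89), Acp1 (0.82) and Dhrs1 (0.78). For Idi1 the closest were Hspg2 and Klk1b26 (0.97 and 0.96), both among the probe sets that go against their labels in YC, and C1qtnf3 (0.95). Hmgcs1 and Idi1 correlated with r = 0.73 over the animals, and their deviations from the group means with r = -0.29, where most Idi1 values outside YC lie at the floor.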

How the data were processed

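Total RNA of 15 kidneys, counted by group and number, was measured on 2 array types. The 30 samples, in 3 groups of 5, were grouped and numbered by their titles. The authors deposited 1 whole-number intensity per probe set and array, some below 0; the software behind it is not given in the sources used here. Trimmed means of the arrays were 1463 to 1504, so the deposited values had been scaled.

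Arrays of a table were brought to 1 mean, taken without the top and bottom 2% of values (factors 0.997 to 1.01). Values under the floor, the root mean square of all negative values in a table, were set to it, and log2 was taken. Probe sets above the floor on at least 5 arrays were tested, 2609 on the first type and 1909 on the second. Left out were 122 control probe sets and 77 blank ones, of which 16 were not controls. Differences near the floor are understated. All groups entered 1 fit in limma (version 3.58.1, lmFit and eBayes, R 4.3.3), adjusted by Benjamini-Hochberg over both types at 0.05. The script was tested on simulated data. Symbols came from array annotation, updated by gene number through RefSeq (GRCm38.p6, 7544 of 7561). All tested members carry the suffix s, which by the maker's convention marks probes that can match more than one transcript.

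The members and lists were chosen with earlier results of these data known. Every member was described, along with each listed gene past the threshold, fixed regulators, and the 3 genes most like each member. Deviations of same-numbered animals correlated at 0.21 to 0.49 for OC with YC, -0.015 to 0.40 for CR with OC and 0.069 to 0.40 for CR with YC. These values also hold the step between number sets, so pairing by number cannot be read from them. The labels give no pairing either. The main fit did not pair animals, and the number entered as a block only in an alternative. Alternatives covered scaling, floor, filter, moderation, groups fitted, the number block, number sets and each animal left out.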

Additional observations from a re-analysis of the deposited data

Results flagged for a closer look

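For Idi1 in OC kidneys, animal 1 read 1210 and was above the floor, while the other 4 lay at it, so its gap to the next animal was the whole range of the group on the floored log2 scale (Dixon ratio 1, against a critical value of 0.71 for 5 animals). The floor fixes that ratio. On the deposited scale the next animal read 757 and the ratio was 0.559, under the limit.

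For Dgat2, OC animal 5 read 7467, where the other 4 OC animals lay between 11010 and 11846 (Dixon ratio 0.841). The same animal had the highest Fasn value of all 15. Without any 1 animal, CR minus OC for Dgat2 ran from -0.17 to 0.015. Chance alone puts about 1 group in 20 past this limit, and 15 groups of 5 were examined.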

How the results depend on the processing

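For the 5 tested members, 343 of 378 values under the alternatives kept their sign and side of the threshold, 22 lost a call and 13 changed sign. The 343 include all 23 of Idi1 for CR minus OC, which ran from -0.17 to 0. Most of those animals lay at the floor in the main fit, so no sign can be read from them. Changes of sign were confined to Fasn, Scd1 and Dgat2, whose differences never passed. In animals 1 to 3 alone Fasn was -0.15 for OC minus YC and -0.38 for CR minus YC. In animals 4 and 5 alone Scd1 was 0.84 for OC minus YC and Dgat2 0.31 for CR minus OC. With each animal left out, OC minus YC of Scd1 ran from -0.36 to 0.31, CR minus OC of Dgat2 from -0.17 to 0.015, CR minus OC of Fasn from -0.47 to 0.057 and CR minus YC of Fasn from -0.0009 to 0.45. The sterol median minus the lipid median was -0.59 for OC minus YC, -0.076 for CR minus OC and -0.96 for CR minus YC. The value for CR minus OC includes Idi1, for which no difference can be read there. This difference of medians was 0.11 for CR minus OC in animals 1 to 3, and -0.34 for OC minus YC without OC animal 4. It moved to -1.36 for OC minus YC in animals 4 and 5, and to -0.53 for CR minus OC with sets above the floor on all 15 arrays, where Idi1 and Fasn are gone. For CR minus YC it moved to -1.52 with a lower floor, -0.43 in animals 1 to 3 and -1.73 in animals 4 and 5. In animals 1 to 3 and with a lower floor, the medians cover 6 probe sets in place of 5. Those values are therefore not over the same sets. Idi1 itself was -1.54 for CR minus YC with a lower floor, where the main fit gave -0.69. Other causes of these moves were not tested.

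Counts of called probe sets moved more. For OC minus YC 233 became 92 with all 15 arrays above the floor and 150 without the sets that go against their labels, with 158 to 234 leaving out each animal. For CR minus OC 118 became 68 without a filter, 50 and 24 with 10 and 15 arrays above the floor, 72 with those groups alone, 224 with the number set as a term, 261 in animals 1 to 3 and 23 in animals 4 and 5, with 63 to 106 leaving out each animal. For CR minus YC 258 became 117 with all 15 arrays above the floor, 439 with the number set as a term, 130 in animals 4 and 5 and 169 without the sets that go against their labels, with 170 to 242 leaving out each animal. With the number as a block the counts were 277, 170 and 325, and for age Hmgcs1 had an adjusted p of 0.0116 and Idi1 of 0.00378 in limma. The block changed no call of a member. With a higher floor or a filter of 10 or more arrays Idi1 could not be tested. The asinh scale was chosen after seeing the data. Values near the floor, 5 animals a group and the unlabelled step between number sets limit what these genes can show.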

Other observations

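Some genes outside the members were picked after their values were seen and are given as values. Elovl6, which lengthens palmitate, read 1128, 1001, 1701, 1680 and 2329 in CR, 782, 637, 817, 1171 and 1181 in OC and 1034, 652, 649, 622 and 467 in YC, against a floor of 1103. It lay above the floor in 4 CR and 2 OC animals and in no YC animal. CR minus OC was 0.43 ± 0.17 and CR minus YC 0.47 ± 0.17 on the log2 scale, and neither passed (limma adjusted p of 0.25 and 0.144). Prkag1, a subunit of AMP-activated protein kinase, which restrains lipid synthesis, read 8558, 9162, 14743, 11810 and 8223 in CR, 16013, 15229, 11002, 15714 and 25040 in OC and 9220, 9735, 8039, 10945 and 11174 in YC. OC minus YC was 0.72 ± 0.21 and CR minus OC -0.65 ± 0.21, which did not pass either (limma adjusted p of 0.0584 and 0.134).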
